A study of Mus musculus with 30 samples.

Results

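The 9 genes of myelin and the oligodendrocyte surface, Mbp, Mobp, Mog, Mag, Cnp, Mal, Cldn11, Opalin and Ermn, were followed in microglia and astrocytes sorted from mouse spinal cord. They were chosen by symbol, as protein-coding entries of the annotation deposited with the expression table, and make up 9 of its 30952 genes. All 9 were found, and none was removed by a filter before testing. The table holds 30 RNA-seq libraries, 15 of each cell type, and the design asks how the glial transcriptome differs in experimental autoimmune encephalomyelitis (EAE) and what dosing with a RIPK1 kinase inhibitor changes.

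The mice were female C57BL/6J. EAE animals were immunized with the peptide MOG35-55 at 8 to 10 weeks of age, so that a fragment of the protein made from Mog was the immunogen. Once the clinical score was about 1 they received, 2 times daily for 3 days by gavage, either 20% Captisol (EAE-vehicle, 6 mice) or 50 mg/kg of RIPK1inh-1 (GSK'547) in that vehicle (EAE-RIPK1inh, 5 mice). Naive mice (4) were the unimmunized group. Astrocytes were gated as GLAST+ CD11b- CD45- CD140a- and microglia as CD11b+ CD45int CX3CR1+, after spins in 25% BSA meant to remove myelin. The gate for astrocytes thus took out CD140a+ oligodendrocyte precursors, but no antibody was directed at mature oligodendrocytes.

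Myelin is the stacked membrane that oligodendrocytes wrap around axons in the spinal cord. Its main structural proteins hold adjacent membrane layers together, and a second set of proteins sits at the innermost or outermost layer and contacts the axon or the outside. Several myelin mRNAs, those of Mbp and Mobp among them, travel along oligodendrocyte processes and are translated next to the sheath, so that myelin itself carries RNA. In EAE the immune response damages this sheath.

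Values are log2 FPKM, that is read fragments per kilobase of transcript, scaled to library size, on a log2 scale, so that levels of different genes can be set side by side. The authors' table is quantile-normalized: all 30 libraries contain the same sorted values, from 0 to 15.34. In each library the lowest values only follow the order of the genes in the file, and a gene in that stretch is described here as without signal. Signal reached between 6728 and 22981 genes per library. The EAE-vehicle astrocyte library 1 had the fewest and the naive astrocyte library 1 the most. Results that rest on them are given with and without both, as the libraries that stand apart. Others came near these ends and were kept, with 22109 genes in the EAE-vehicle and 8815 in the naive astrocyte library 2. In microglia the naive library 4 had 8710 and the EAE-vehicle library 2 had 20398. Sequencing depth is unknown, so no counting interval can be given. The labelled cell types carried their markers: all 10 microglial markers were higher in microglia in every treatment group, and the mean of 8 astrocyte markers was 6.93 to 8.99 in astrocyte and 0.94 to 1.88 in microglia libraries.

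The promoter sequences below are those of the 4 genes that passed the cutoff for higher values in EAE astrocytes (Mobp, Mag, Mal and Cldn11, described further on), shown because SOX10 and MYRF, the transcription factors of myelinating oligodendrocytes, bind short motifs near many myelin genes. They come from RefSeq on GRCm38.p6, where 8 of the 9 genes matched an entry. Mbp had none. Each runs 5′ to 3′ on the gene's strand and stops before the annotated start: Mobp at chr9:120149492-120149706 (+ strand), Mag at chr7:30914923-30915172 (- strand), upstream of the farthest of its 3 listed starts, Mal at chr2:127656696-127656945 (- strand) and Cldn11 at chr3:31149670-31149919 (+ strand). Capitals mark ACAAAG and ACAATG (SOX motifs) and CTGGNAC (the MYRF motif), searched on both strands.
Mobp: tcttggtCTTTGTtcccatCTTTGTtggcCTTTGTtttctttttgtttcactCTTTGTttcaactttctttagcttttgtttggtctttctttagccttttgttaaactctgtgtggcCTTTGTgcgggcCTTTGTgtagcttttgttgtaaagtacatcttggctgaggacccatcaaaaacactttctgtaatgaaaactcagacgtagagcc
Mag: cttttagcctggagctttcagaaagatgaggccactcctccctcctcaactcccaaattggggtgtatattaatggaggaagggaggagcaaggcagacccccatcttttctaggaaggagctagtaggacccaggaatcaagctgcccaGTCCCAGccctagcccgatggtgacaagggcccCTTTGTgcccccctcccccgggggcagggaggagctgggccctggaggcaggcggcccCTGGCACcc
Mal: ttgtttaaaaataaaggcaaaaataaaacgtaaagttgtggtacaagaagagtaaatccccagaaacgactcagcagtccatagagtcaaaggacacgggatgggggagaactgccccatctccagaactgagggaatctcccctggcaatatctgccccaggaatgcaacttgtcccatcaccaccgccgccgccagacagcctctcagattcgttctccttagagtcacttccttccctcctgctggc
Cldn11: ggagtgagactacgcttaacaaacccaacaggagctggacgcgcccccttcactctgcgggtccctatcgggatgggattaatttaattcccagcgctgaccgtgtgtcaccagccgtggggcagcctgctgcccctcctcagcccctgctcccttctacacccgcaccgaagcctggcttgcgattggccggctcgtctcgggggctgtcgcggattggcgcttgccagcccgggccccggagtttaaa
In windows of 250 bases before to 50 bases after the start, ACAAAG occurred in 18.7% of all 32851 listed promoters, ACAATG in 12.6% and CTGGNAC in 19.3%. The Mobp promoter held 6 copies of ACAAAG, all read on the opposite strand. It was itself the only listed promoter with at least 6, a threshold set from its own count. The Mag promoter shown holds 1 ACAAAG and 2 CTGGNAC matches. Mal and Cldn11 had no match to any of the 3 motifs. Of the genes not shown, Cnp had 1 ACAAAG and 2 CTGGNAC matches, Opalin 2 and 1, Mog 1 CTGGNAC, and Ermn 1 ACAATG, and no matches overlapped. A match describes letters in a window and not a bound site.

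All 9 genes lie where GENCODE M21 places them on GRCm38. Mobp spans chr9:120149707-120181484, Mog chr17:37010743-37023398, Mag chr7:30899176-30914873, Cnp chr11:100574904-100591729 and Mal chr2:127633226-127656695. Cldn11 spans chr3:31149920-31164324, Opalin chr19:41061710-41077113, Ermn chr2:58045113-58052864 and Mbp chr18:82475146-82585637. The values are per gene and not per transcript. For Mbp this matters, because its locus also produces the longer Golli transcripts, which immune cells use and which cannot be separated here. Mbp, Mobp, Mog, Cnp and Ermn each overlap another annotated gene, so reads there may be shared, and these 5 are marked as confounded in the deposited annotation.

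In astrocyte libraries the 2 major structural genes were among the most abundant transcripts of the whole table. Mbp, which encodes myelin basic protein of the compact layers, was at 12.67 ± 1.00 (SD, n = 4) in naive, 13.71 ± 1.01 (n = 6) in EAE-vehicle and 13.59 ± 0.78 (n = 5) in EAE-RIPK1inh astrocytes on the log2 FPKM scale. In each of the 15 libraries it ranked between 1 and 20 among all genes. In the EAE-vehicle library 6 it was the top gene, at 15.34, the value that quantile normalization gives the top gene of every library. Mobp, a small basic protein of the same layers, ranked between 7 and 59. A naive astrocyte sort thus already contained these transcripts at high level: the lowest Mbp value of any naive astrocyte library was 11.73.

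**Figure D1:**
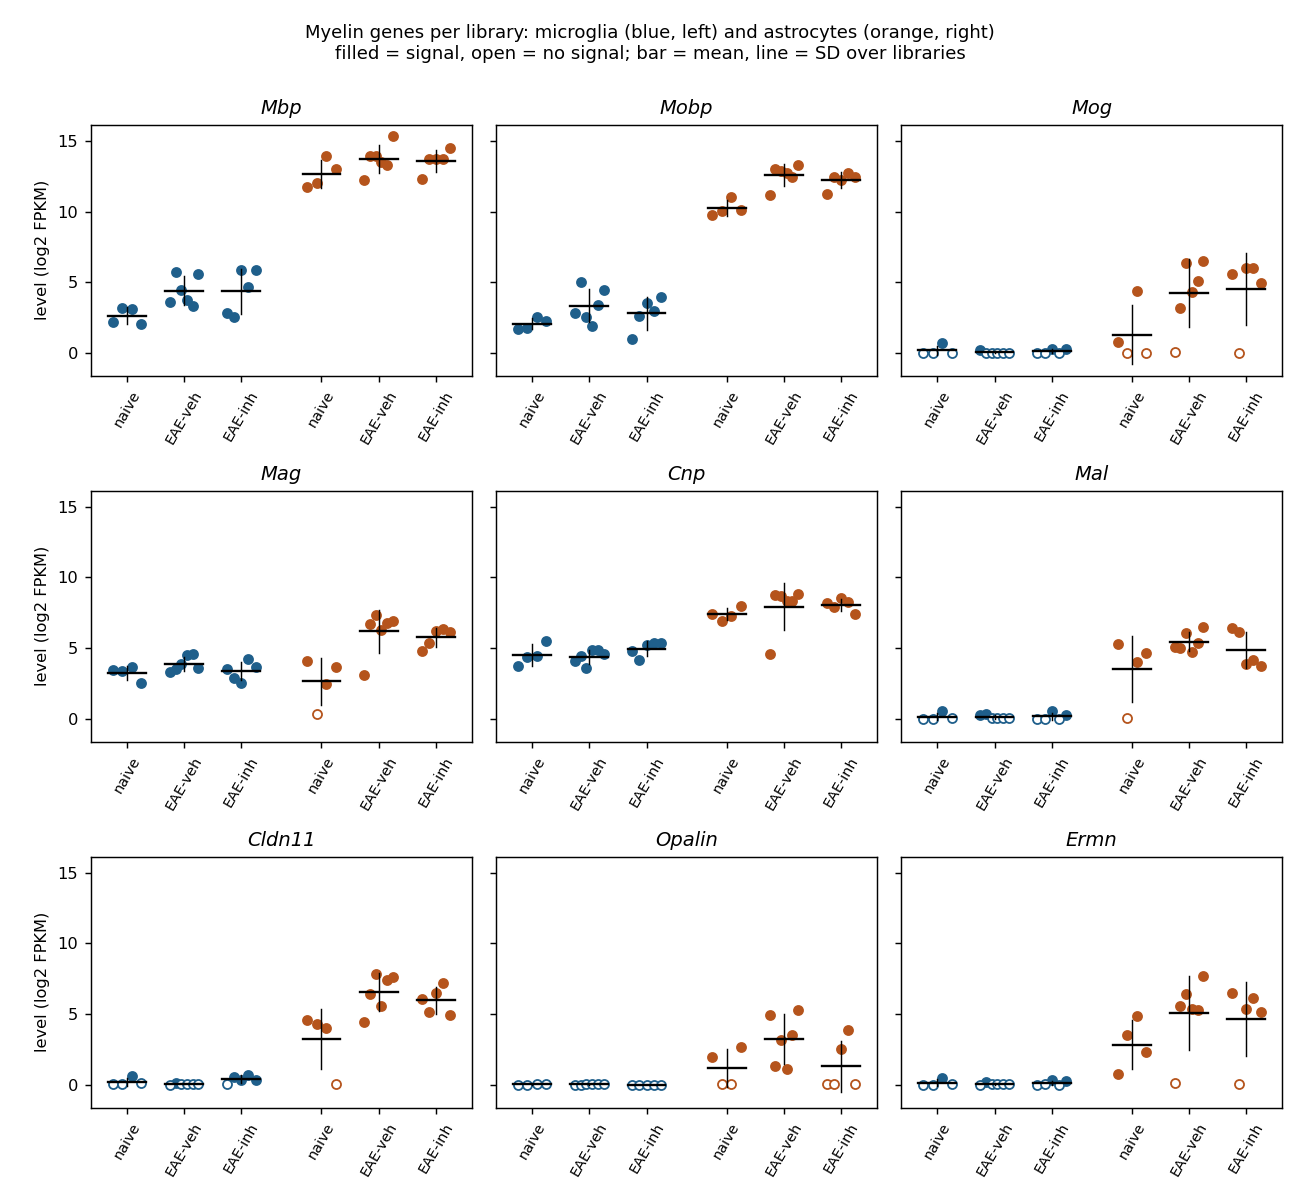
Level (log2 FPKM) of each of the 9 genes in every library, by treatment group, with microglia in blue and astrocytes in orange. Open points had no signal, bars are means and vertical lines SD; Mbp and Mobp stand far above the other genes in astrocytes, and 5 of the genes have mostly open points in microglia.

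The other genes were lower and less evenly detected in astrocytes. Cnp, the cyclic nucleotide phosphodiesterase of non-compact myelin, had signal in all 15 astrocyte libraries, with a median of 8.16. Mag, the myelin-associated glycoprotein that faces the axon, had signal in 14 of 15, as did Mal, a proteolipid of myelin and T lymphocytes, and Cldn11, the tight-junction claudin of the sheath. Ermn, a cytoskeletal protein of mature oligodendrocytes, had signal in 13, Mog, on the outermost layer, in 11, and Opalin, a sialylated membrane protein of mature oligodendrocytes, in 10. Of the 135 values in astrocytes, 14 had no signal. In the order of medians over the 15 libraries Mbp (13.71) and Mobp (12.43) came first, overlapping with each other but not with the third, Cnp. Mag, Cldn11, Ermn, Mal and Mog, at 6.15 to 4.40, and Opalin at 1.92 overlapped with each other throughout.

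In microglia only 4 of the 9 genes had signal in every library: Cnp, Mbp, Mag and Mobp, with medians of 4.55, 3.58, 3.54 and 2.59, whose ranges overlapped. Cldn11 had signal in 6, Mal in 5, Mog in 4 and Ermn in 4 of the 15 microglia libraries, never above 0.71. Opalin had signal in 0 of 15. A gene without signal was not detectable in that library, which is not the same as absent.

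The comparison between the cell types put these levels side by side within each treatment group. Genes were called at a fold above 1.5 and an unadjusted p under 0.05, the study's cutoff, with limma across all genes. Of the 9 genes, 6 were called lower in microglia than in astrocytes among naive libraries, where 9.64% of all genes tested were called lower. Among these 6, Mal, Cldn11 and Ermn had signal in only 1 of 4 naive microglia libraries. For Mal and Cldn11 the naive cell types overlapped (exact permutation p = 0.0857 for each), and Ermn had a limma adjusted p of 0.169. In EAE-vehicle all 9 were called lower, and in EAE-RIPK1inh 8, against 10.0% of all genes in each. Mbp was lower in microglia by a log2 difference of -10.05 (SE 0.72) in naive, -9.32 (SE 0.59) in EAE-vehicle and -9.25 (SE 0.64) in EAE-RIPK1inh mice, with limma adjusted p of 1.44e-11, 8.41e-13 and 7.96e-12. The corresponding Mobp differences were -8.19, -9.24 and -9.42. Microglia and astrocyte values of both genes did not overlap in any treatment group, and the exact permutation test gave its smallest possible p of 0.0286 in naive, 0.00216 in EAE-vehicle and 0.00794 in EAE-RIPK1inh libraries.

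Mag did not follow this order in naive mice. Its naive values were 3.42, 3.36, 3.64 and 2.53 in the microglia libraries 1 to 4 and 4.06, 0.35 (no signal), 2.47 and 3.68 in the astrocyte libraries 1 to 4. The groups overlapped, with a log2 difference of 0.60 (95% confidence interval -0.88 to 2.08, limma adjusted p = 0.836), which turned to -0.16 without the naive astrocyte library 2. In EAE-vehicle libraries Mag was lower in microglia by -2.29 (SE 0.59, limma adjusted p = 0.00695) and in EAE-RIPK1inh libraries by -2.39 (SE 0.64, limma adjusted p = 0.0110). Cnp was lower in microglia in all 3 treatment groups, by -2.89, -3.55 and -3.09 (limma adjusted p at most 0.00118).

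The genes therefore stood in different proportions in the 2 cell types, within each library. The Mbp level exceeded the Mag level by 8.06 ± 1.29 (SD, 14 astrocyte libraries with Mag signal), with a range of 6.56 to 11.46, but by 0.37 ± 1.42 (SD, 15 libraries) in microglia, with a range of -1.27 to 3.34. The difference Mbp minus Cnp was 5.56 ± 0.99 in astrocytes and -0.70 ± 1.34 in microglia, and Mobp minus Cnp was 4.00 ± 1.08 and -1.79 ± 1.15. None of these 3 pairs of ranges overlapped. Mbp minus Mobp, by contrast, was 1.56 ± 0.70 in astrocytes and 1.09 ± 0.84 in microglia, with overlapping ranges. Mag and Cnp were thus nearer to Mbp in microglia than in astrocytes.

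**Figure D2:**
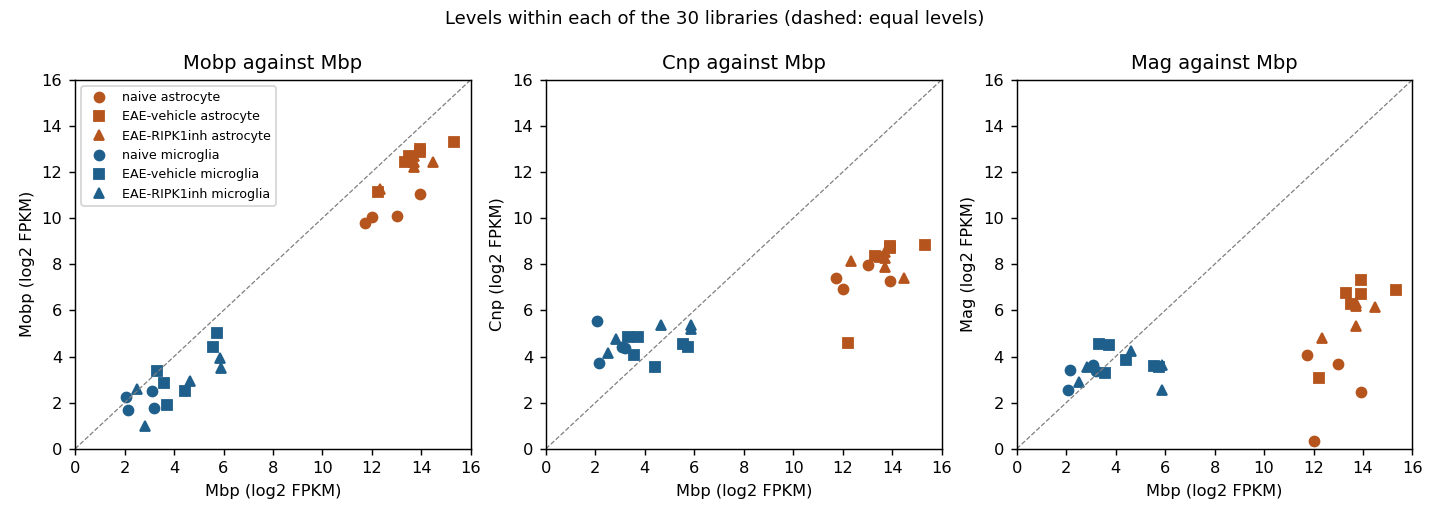
Mobp, Cnp and Mag levels against the Mbp level of the same library (both log2 FPKM) for the 30 libraries, astrocytes in orange and microglia in blue, with a shape for each treatment group. Mobp lies along 1 band in both cell types, while Cnp and Mag lie 5.56 and 8.06 below Mbp on average in astrocytes and close to it in microglia.

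Across the 15 microglia libraries Mbp and Mobp varied together (Pearson r = 0.79), whereas Mag followed neither (r = 0.11 with Mbp and 0.02 with Mobp). Across the 15 astrocyte libraries r was 0.80 for Mbp with Mobp, 0.85 for Mobp with Mag and 0.90 for Mog with Ermn, but 0.18 for Mbp with Opalin. These values describe libraries that share treatment groups and differ in the number of genes with signal.

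EAE was compared with naive next, in astrocytes. The EAE-vehicle mean exceeded the naive mean for all 9 genes. Their median log2 difference was 2.23, and that of all genes tested was 0.03. Mobp, Mag, Cldn11 and Mal passed the cutoff, 4 of 9, where 2.69% of all genes were called higher. Only Mobp also passed at a limma adjusted p under 0.05, which 0.579% of genes did. Without both astrocyte libraries that stand apart 6 of the 9 were called, with Mog and Cnp added. The count was 7 without the EAE-vehicle library 1 alone and 3 without the naive library 2.

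Mobp was at 9.77, 10.06, 11.04 and 10.10 in the naive astrocyte libraries 1 to 4, and ranged from 11.14 over a median of 12.78 to 13.32 in the 6 EAE-vehicle libraries. The lowest EAE-vehicle value, in library 1, lay above the highest naive value, and 1.02% of all genes were higher without overlap in this comparison. The log2 difference was 2.34 (SE 0.38, limma adjusted p = 0.00845), and the exact permutation p was 0.00476, the smallest that 4 against 6 libraries allow. It ranged from 2.18 to 2.62 when each library in turn was left out.

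Mag was without signal in naive library 2 and at 2.47 to 4.06 in the other naive astrocyte libraries. In EAE-vehicle it ranged from 3.09, in library 1, over a median of 6.74 to 7.32. Only that library overlapped with the naive values, and the log2 difference was 3.54 (SE 0.83, limma adjusted p = 0.0816, exact permutation p = 0.0190). Without both libraries that stand apart it was 4.63, and without the naive library 2, where Mag had no signal, it was 2.77.

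Cldn11 was at 4.54, 4.30, 4.03 and, without signal, 0.06 in naive astrocyte libraries 1 to 4, and between 4.46 and 7.85 (median 6.91) in EAE-vehicle. The groups overlapped only between the highest naive and the lowest EAE-vehicle library, both of them the libraries that stand apart. The log2 difference was 3.32 (SE 0.89, limma adjusted p = 0.145, exact permutation p = 0.0143), and 2.26 without the naive library 4. Mal was at 5.26, 0.08 (no signal), 4.04 and 4.65 in naive and 4.72 to 6.47 in EAE-vehicle astrocytes, a log2 difference of 1.93 (SE 0.89, limma adjusted p = 0.695). Much of it came from 1 library, since it was 0.79 without the naive library 2, and the Mal call was lost in 8 of 15 fits that left 1 library out: the naive libraries 2 and 3, the EAE-vehicle libraries 1, 2, 3, 5 and 6 and the EAE-RIPK1inh library 4.

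The remaining genes did not pass the cutoff in astrocytes. Mbp, already among the top 20 genes in naive astrocytes, differed by 1.04 (95% confidence interval -0.12 to 2.20). After quantile normalization no value can exceed 15.34, which limits how far it can rise. The naive Mbp values of 11.73, 12.02, 13.93 and 13.01 lay within or just below the EAE-vehicle range of 12.23 to 15.34. Without the naive library 3 or the EAE-vehicle library 1 the Mbp difference passed, at 1.46 and 1.34. Mog differed by 2.95 (-0.07 to 5.97), with signal in 2 of 4 naive and 5 of 6 EAE-vehicle libraries. Opalin differed by 2.06 (-0.15 to 4.26), with signal in 2 of 4 and 6 of 6, and Ermn by 2.23 (-0.82 to 5.29). Mog passed without the naive library 3, the EAE-vehicle library 1 or the EAE-RIPK1inh library 2, which enters through the shared spread. Opalin passed without the naive library 4, the EAE-vehicle library 2 or 4 or the EAE-RIPK1inh library 4, and Ermn, at 3.23, without the EAE-vehicle library 1. Cnp differed by 0.53 (-0.89 to 1.95), and by 1.21, which passed, without the EAE-vehicle library 1, whose Cnp value of 4.58 lay below the 8.32 to 8.85 of the others.

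**Figure D3:**
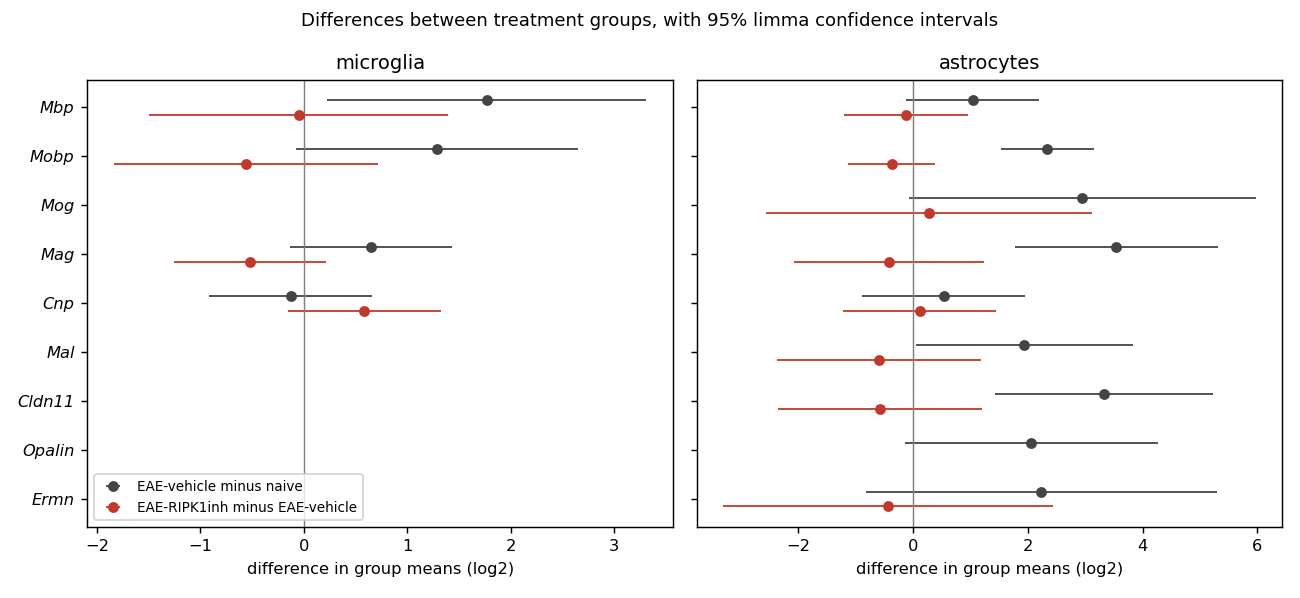
Difference in group means (log2) with 95% limma confidence intervals for EAE-vehicle minus naive (dark) and EAE-RIPK1inh minus EAE-vehicle (red), in microglia and astrocytes, for genes with signal in enough libraries of both groups (at least 50%). In astrocytes all EAE differences lie above 0, with those of Mobp, Mag, Cldn11 and Mal clear of it, and all inhibitor intervals include 0.

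Other genes of oligodendrocytes were examined as a list of 30. In EAE-vehicle against naive astrocytes 8 of the 30 were called higher and 2 lower, with a median log2 difference of 0.97. Of all genes, 2.69% were called higher there. Cryab, Apod and Car2 were among its most abundant members in astrocytes. Apod, a lipid carrier of oligodendrocytes and other cells, rose from 5.65 ± 0.54 to 10.70 ± 1.07 (limma adjusted p = 0.00301), and Cryab, a small heat shock protein that reactive astrocytes also make, was higher by 1.01 (limma adjusted p = 0.261). Car2, a carbonic anhydrase, differed by -0.27 and was not called. In EAE-vehicle against naive microglia 2 of the 30 were called higher (Cryab and Anln) and 1 lower (Trf, transferrin), with a median of -0.04. Of all genes, 6.13% were called higher in that comparison. With the inhibitor 1 of 30 was called lower in astrocytes (Klk6, by a log2 difference of -2.80) and 1 lower in microglia (Cryab, -1.15), with medians of -0.23 and -0.02. Of all genes, 3.02% and 1.76% were called in either direction. The counts in microglia and with the inhibitor are near these shares. The 2 genes called higher in EAE-vehicle microglia also passed adjustment: Cryab differed by 3.44 (limma adjusted p = 2.35e-04) and Anln by 1.56 (limma adjusted p = 0.0213). Trf, at -1.16, did not (limma adjusted p = 0.0925). Anln, Trf and Klk6 were named after their values were seen.

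In EAE-vehicle against naive astrocytes the transcription factors of the lineage did not pass the cutoff: 0 of 5 by limma, with 0 of 5 also at an unadjusted p under 0.05. Of all 30718 genes tested there, 2060 were called in either direction, so 0 of 5 is near that share. Sox10 was at 0.03 ± 0.06 in naive astrocytes, where 1 of 4 libraries had signal, and at 0.88 ± 1.27 in EAE-vehicle astrocytes, with signal in 5 of 6. Myrf was at 0.32 ± 0.58 and 0.53 ± 0.55. Olig1, which marks the whole oligodendrocyte lineage and is also found in some astrocytes, was at 8.33 ± 0.94 in naive and 7.40 ± 0.85 in EAE-vehicle astrocytes, and Olig2 at 4.66 ± 0.51 and 2.69 ± 1.54. The myelin structural transcripts were abundant in naive astrocyte libraries, in which Sox10 and Myrf had little or no signal but Olig1 and Olig2 were at 8.33 and 4.66. The source of the myelin transcripts was not tested.

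Markers of some other cells were higher with EAE in the astrocyte sort, where 2.69% of all genes were called higher. The mean of 6 T cell markers ranged from 0.22 to 1.28 in naive and 0.92 to 5.49 in EAE-vehicle libraries, with 4 of 6 called higher. Of 6 markers of monocytes and neutrophils 5 were called higher, and their mean went from 0.10 to 1.51 in naive to 2.37 to 6.04 in EAE-vehicle. At a limma adjusted p under 0.05, 0 of 6 passed in each of these lists. Of 10 microglial markers 3 were called higher (Aif1, C1qa and Cx3cr1, named after their values were seen), and their mean went from 0.90 to 2.22 in naive to 1.69 to 3.69 in EAE-vehicle. Of 8 astrocyte markers 4 were called lower and 1 (Gfap) higher, where 2060 of all 30718 genes tested were called in either direction. Neuronal markers were present in every astrocyte library, with list means of 4.10 to 5.63, led by Nefl at a mean of 8.46, and 1 of 7 (Tubb3) was called higher in EAE. Precursor markers stayed at list means of 0.14 to 2.00, with 0 of 4 called by limma and 0 of 4 at an unadjusted p under 0.05. The mean of the 4 of 6 Schwann cell markers in the table ranged from 2.00 to 3.10 in naive and 1.14 to 2.18 in EAE-vehicle astrocytes. The part of these cells in the myelin gene values was not tested. In such sorted bulk samples more oligodendrocyte material and more RNA per cell cannot be told apart.

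**Figure D4:**
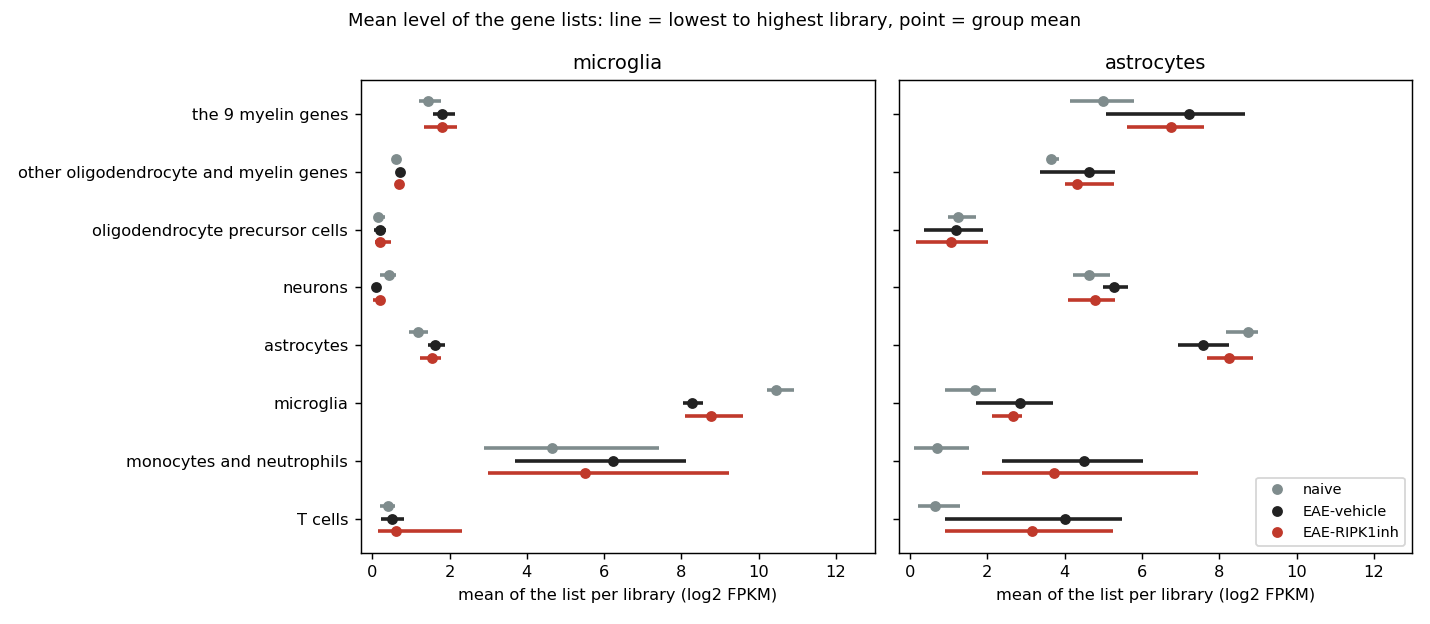
Mean level (log2 FPKM) of the 9 myelin genes and of 7 marker lists per library, in microglia and astrocytes; points are group means and lines run from the lowest to the highest library. In astrocytes the myelin gene mean and the T cell, monocyte and neutrophil means are higher in EAE than in naive groups, and the astrocyte marker mean is lower.

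In microglia the EAE comparison gave 1 of 9 genes. Mbp was at 2.15, 3.19, 3.09 and 2.07 in the naive microglia libraries 1 to 4, and ranged from 3.33 over a median of 4.08 to 5.74 in EAE-vehicle. All 6 EAE-vehicle values lay above the naive values, which 2.93% of genes did. The log2 difference was 1.77 (SE 0.72, limma adjusted p = 0.262, exact permutation p = 0.0190). Over all genes tested 6.13% were called higher, so 1 of 9 is near that background. The Mbp call was lost when any of 4 libraries was left out, the naive 1 and 4 and the EAE-vehicle 2 and 6, with differences of at most 1.61. Of all microglia libraries, the naive 4 had the fewest genes with signal and the EAE-vehicle 2 the most.

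Mobp in microglia was at 1.68, 1.79, 2.52 and 2.24 in naive and at 1.88 to 5.03 in EAE-vehicle libraries. The groups overlapped, and the log2 difference of 1.29 (95% confidence interval -0.08 to 2.65) did not pass. It passed without the EAE-vehicle library 3 or 4 or the EAE-RIPK1inh library 1. Among the EAE-vehicle libraries, 2 and 6 had the highest Mbp (5.74 and 5.56) and also the highest Mobp (5.03 and 4.42). Mag differed by 0.65 (-0.14 to 1.43) and Cnp by -0.13 (-0.91 to 0.66). For the other 5 genes too few libraries had signal to give a difference.

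Of 15 genes for uptake and handling of lipid and myelin debris, 8 were called higher and 3 lower in EAE-vehicle microglia. Among all 28958 genes tested there, 3473 were called in either direction. Apoe, the main lipid carrier of the tissue, rose from 11.18 ± 0.62 to 14.11 ± 0.49 (limma adjusted p = 0.00173), and Trem2, a lipid-sensing receptor, fell from 10.65 ± 0.25 to 9.17 ± 0.30 (limma adjusted p = 1.83e-04). Of the 10 microglial markers 8 were called lower and 1 higher. Monocyte and neutrophil markers in microglia libraries ranged widely, with list means of 2.88 to 7.42 in naive and 3.71 to 8.12 in EAE-vehicle, and 2 of 6 were called higher (Ly6c2 and Plac8). Of the 8 astrocyte markers 2 were called higher in EAE-vehicle microglia, Aldh1l1 by 2.55 on the log2 scale (limma adjusted p = 0.0113) and Gfap by 1.56 (limma adjusted p = 0.369). The others were not called and differed by -0.25 (Slc1a2) to 0.11 (Sox9). Only 3 of the 8 were higher at all, and the list median was -0.035. The mean of the astrocyte markers was 0.94 to 1.44 in naive and 1.44 to 1.88 in EAE-vehicle microglia libraries, and Mbp was far more abundant in the astrocyte sort. Ly6c2, Plac8 and Aldh1l1 were named after their values were seen. The part of these cells in the Mbp values was not tested.

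Whether EAE acted differently on the genes in the 2 cell types was tested with an interaction term. The difference of the EAE effects, microglia minus astrocytes, was called below 0 for 4 of 9 genes (Cldn11, Mag, Mog and Mal), against 3.71% of all genes, and for 0 of 9 at a limma adjusted p under 0.05. The count was 2 in 19 of the 30 fits that left 1 library out, and 6 without the EAE-vehicle astrocyte library 1. Mog, Mal and Cldn11 lacked signal in most microglia libraries, so no size is given for them. For Mag, the only one of the 4 with signal in all microglia libraries, it was -2.89 (SE 0.93, limma adjusted p = 0.169), and its call was kept in all 30 of these fits. For Mbp the term was 0.73 (95% confidence interval -1.18 to 2.63) and for Mobp -1.05 (-2.61 to 0.51). A difference between the cell types in the response of Mbp or Mobp was not shown.

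RIPK1inh-1 was then compared with vehicle in EAE mice. In astrocytes 0 of the 9 genes were called by limma, and 0 had an unadjusted p under 0.05, where 3.02% of all genes were called. The mean of 7 of 9 was lower with the inhibitor, with a median log2 difference of -0.42. Mobp was at 11.25, 12.43, 12.23, 12.70 and 12.43 in the EAE-RIPK1inh astrocyte libraries 1 to 5, within the EAE-vehicle range, a difference of -0.37 (95% confidence interval -1.13 to 0.39). Without the EAE-vehicle library 1 the Mobp difference was -0.66 and passed the cutoff. The count also became 1 without the EAE-vehicle library 2 or 4 or the EAE-RIPK1inh library 4. Mbp differed by -0.12 (-1.21 to 0.96) and Mag by -0.42 (-2.08 to 1.24).

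Opalin had signal in 2 of 5 EAE-RIPK1inh and 6 of 6 EAE-vehicle astrocyte libraries (exact permutation p = 0.108 for the levels). Its values were 0.01, 0.01 and 0.03 without signal and 2.49 and 3.86 with signal under the inhibitor, against 1.07 to 5.29 under vehicle. Mog differed by 0.28 (-2.56 to 3.11) and Ermn by -0.44 (-3.30 to 2.43), and in both the EAE-RIPK1inh library 2 was without signal while the other 4 lay above 4.9. The intervals for these genes leave room for changes of several log2 units in either direction. Of the 8 astrocyte markers 2 were called higher with the inhibitor, where 3.02% of all genes were called in either direction. At a limma adjusted p under 0.05, 0 of the 8 passed, as did 0 of all genes tested. Of 6 T cell markers 0 were called by limma, with 0 of 6 at an unadjusted p under 0.05.

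In microglia 0 of the 9 genes were called with the inhibitor, where 1.76% of all genes were. Mbp was at 2.83, 2.51, 5.88, 4.64 and 5.85 in the EAE-RIPK1inh microglia libraries 1 to 5. These values spanned below and above the EAE-vehicle range of 3.33 to 5.74, and the difference was -0.05 (95% confidence interval -1.5 to 1.39). Mobp differed by -0.56 (-1.83 to 0.72), Mag by -0.52 (-1.25 to 0.22) and Cnp by 0.58 (-0.15 to 1.32), which passed, at 0.79, without the EAE-RIPK1inh library 2. Cldn11 had an unadjusted limma p of 0.0150 (adjusted p = 0.930) with signal in 4 of 5 EAE-RIPK1inh and 1 of 6 EAE-vehicle microglia libraries, but at levels of at most 0.71 and below the fold cutoff. The interaction of the inhibitor with cell type was called for 0 of 9 genes, against 3.15% of all genes.

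The mean of the 9 genes per library was 1.45 ± 0.23, 1.80 ± 0.23 and 1.80 ± 0.40 in naive, EAE-vehicle and EAE-RIPK1inh microglia and 5.00 ± 0.68, 7.21 ± 1.24 and 6.76 ± 0.75 in astrocytes. The protein-coding genes whose levels followed this mean most closely over the 15 astrocyte libraries were Stmn1 (Pearson r = 0.92), Trp53inp2 (0.90), Rps19 (0.89), Arg1 (0.88) and Plekha2 (0.87). Over the 15 microglia libraries they included Slc7a1 (0.84), Parp14 (0.84), Rbck1 (0.83) and Aldh2 (0.83). By Spearman's rho Rps19 in astrocytes and Slc7a1, Parp14 and Rbck1 in microglia were again among the 5 closest. The libraries share treatment groups, and the mean had an r of 0.26 in astrocytes and 0.29 in microglia with the number of genes with signal.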

How the data were processed

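RNA-seq was performed on 15 microglia and 15 astrocyte libraries, grouped by the labels into 4 naive, 6 EAE-vehicle and 5 EAE-RIPK1inh libraries per cell type. The study gives these as numbers of mice and sorted both cell types from the same cohort, but the labels do not say which microglia and astrocyte libraries share a mouse. Poly(A) RNA was reverse transcribed, amplified by PCR and fragmented with Tn5. The authors deposited log2 FPKM values made in OmicSoft Array Studio. The aligner, annotation release and the offset added before the log are not given in the sources used here, nor is depth, so no counting error can be given. The study's methods name a paired t test; here groups were compared with limma 3.58.1 (R 4.3.3; lmFit and eBayes with trend), fitted to the 3 groups within each cell type, or to all 6 for comparisons across cell types, and tested on simulated data. Calls used the study's cutoff (fold over 1.5, unadjusted p under 0.05), with Benjamini-Hochberg adjustment over all genes tested. Single genes also had a two-sided exact permutation test. No gene was filtered except those with 1 value throughout. Differences are given only for genes with signal in at least 50% of the libraries of each group, a rule chosen after the values were seen. Members and lists were chosen with earlier results of these data known. Named genes were the 9 members, up to 4 of the most abundant genes of each list and the 5 genes most like the member mean; Sox10, Myrf, Olig1, Olig2, Gfap, Tubb3 and Trem2 were named for their role or because a count turned on them. Some genes that this rule names are not reported here. Alternatives were an offset of 1, a filter on a mean log2 of at least 1, values without signal set to 0, centring on expressed genes, no trend, library weights, genes with signal as covariate, only the groups compared, the replicate number as block, and leaving out each library. Lists of newly formed oligodendrocytes (1 of 6 called higher in EAE astrocytes), endothelial cells (1 of 6 lower) and erythrocytes (0 of 5, with 0 at an unadjusted p under 0.05) were also tested.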

Additional observations from a re-analysis of the deposited data

Results flagged for a closer look

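Some single libraries lay far from the rest of their group. Of 39 groups of values tested for 1 stray library, 7 had one. The cutoff passes about 1 in 20 independent, normally distributed groups. These groups share libraries and some stray values had no signal, so that rate cannot serve as a chance rate here. The EAE-vehicle astrocyte library 1, which had the fewest genes with signal, was low for Mag (3.09, next value 6.27), Cnp (4.58, next value 8.32) and Ermn (0.091, without signal). The EAE-RIPK1inh astrocyte library 2 was low for Mog (0.00) and Ermn (0.0091), both without signal, while its Mbp and Mobp values lay within the group. In naive astrocytes library 3 was high for Mog (4.40, next value 0.73) and library 4 low for Cldn11 (0.058, without signal). The cause was not tested.

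The effect of EAE on Mag differed between microglia and astrocytes by the unadjusted interaction test (log2 difference, microglia minus astrocytes, -2.89, limma adjusted p = 0.169). It did not pass after adjustment. Mog, Mal and Cldn11 were called by the same test, but they had signal in 4, 5 and 6 of 15 microglia libraries, so that no difference is given for them.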

How the results depend on the processing

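Direction and call were kept in most of the alternatives. With library weights 0 of the 9 genes were called in EAE-vehicle against naive microglia (1 as reported) and 1 under the inhibitor in microglia (0 as reported), and Cnp turned to 0.31 in the former, Mbp to 0.53 in the latter and Cnp to -0.24 under the inhibitor in astrocytes. The interaction terms of the inhibitor turned to 0.034 for Mobp and 0.23 for Mag with weights, and to -0.041 for Mbp with genes with signal as covariate. Centring on expressed genes gave 7 genes in EAE-vehicle against naive astrocytes (4 as reported), 1 under the inhibitor in astrocytes and 1 for its interaction (0 as reported for both). Adding an offset of 1 moved the microglia means of the 9 genes to 2.06, 2.39 and 2.38 in naive, EAE-vehicle and EAE-RIPK1inh libraries.

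Leaving out both astrocyte libraries that stand apart, chosen after seeing the data, gave 1 gene under the inhibitor in astrocytes and 1 for its interaction, turned Mog to -0.57 and Cnp to -0.55 under the inhibitor in astrocytes, and turned the inhibitor's interaction to 0.10 for Mobp and 0.52 for Mag. Leaving out 1 library at a time gave 0 to 2 genes for EAE in microglia, 3 to 7 for EAE in astrocytes, 0 to 1 for the inhibitor in each cell type, 2 to 6 for the EAE interaction and 0 to 1 for the inhibitor's interaction, with 1 without the astrocyte libraries EAE-vehicle 1, 2 or 4 or EAE-RIPK1inh 3 or 4. Differences that changed sign ran from -0.40 to 0.22 for Cnp with EAE in microglia, from -0.44 to 0.41 for Mbp with the inhibitor in microglia and from -0.16 to 1.07 for Mag between naive cell types. With the inhibitor in astrocytes they ran from -0.42 to 0.20 for Mbp, -0.57 to 1.40 for Mog, -0.55 to 0.30 for Cnp and -1.43 to 0.72 for Ermn. The inhibitor's interaction ran from -0.31 to 0.53 for Mbp, -0.48 to 0.27 for Mobp and -0.34 to 0.52 for Mag. The cause of these changes was not tested.

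Treatment groups share only a replicate number. Microglia and astrocytes came from the same cohort of mice, and whether equal numbers mark 1 mouse is not given: deviations of same-numbered libraries correlated at -0.16 to 0.14, and no pairing of groups had every r over 0.1. With the replicate number as a block 0 genes were called for EAE in microglia and 3 for EAE in astrocytes, and with the inhibitor Mbp turned to 0.18 in microglia and 0.20 in astrocytes and Ermn to 0.093 in astrocytes. Other counts of called genes were 6, 9 and 8 between the cell types, as reported, and 3 for the EAE interaction. With depth unknown, a gene without signal bounds no level, and the level below which a library had no signal ranged from 0 to 2.74.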
